A study of Rattus norvegicus with 6 samples.

Results

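Histone genes were taken as every row of the deposited count table whose symbol begins with Hist1h to Hist4h, H2af or H3f3. The rule found 43 of 37203 rows, of which 35 were genes of the replication-dependent histone clusters (symbols in Hist) and 8 were replacement histone genes (6 in H2af and 2 in H3f3). The 6 libraries were made from total RNA of alveolar tissue, which is jaw bone that carries the teeth, from rats whose teeth were moved with or without corticision, a small incision through the bone surface meant to speed up that movement. By title they form 2 groups of 3: case 5, case 6 and case 9, whose source field reads without corticision, and control 5, control 6 and control 10, whose source field reads with corticision. Titles and source field point opposite ways in their usual sense, so groups carry the names of the titles and all differences are case minus control. Where 3 values are given for a group, they stand in the order 5, 6 and 9 for case and 5, 6 and 10 for control. Strain, age, sex and the duration of movement were not given in the sources used here. Nothing states that libraries come from different animals, and p-values then measure no more than the spread between these samples, possibly a technical one.

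Histones package DNA into nucleosomes, each built on a core of H2A, H2B, H3 and H4, with H1 binding the linker DNA. The clustered genes are transcribed mainly in S phase, when new DNA must be packaged, and most of their mRNAs end in a stem-loop, bound by the protein SLBP, in place of a poly(A) tail. Replacement histones are made throughout the cell cycle from polyadenylated mRNAs, among them H2A.Z, macroH2A and H3.3. H2A.X, a DNA damage mark when phosphorylated, belongs to both worlds, since its gene yields a stem-loop transcript and a polyadenylated transcript. Reads of cluster genes therefore depend both on how many cells were copying DNA and on whether RNA without a tail entered the library. Alveolar bone holds marrow, whose blood cell precursors divide.

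The libraries held 10886303 to 14433740 counts. Levels are given in CPM (counts per 1000000 counts of the scaled library). A gene listed at 0 may have had up to 3 counts from counting error alone, which is 0.208 to 0.276 per 1000000 counts before scaling. The 10 bone cell markers, among them Col1a1 and Bglap, took 5.35% (95% Wilson interval 5.34 to 5.37%, case 9) to 9.25% (9.23 to 9.27%, case 5) of the counts. Markers of the labelled tissue were thus counted in every library. The share rests largely on Col1a1, which held 428731 of the 628867 marker counts in case 9 and 935576 of 1165264 in case 5. Bglap was at 2422 CPM (case 6) to 5976 CPM (case 5). Control 5 stood apart by its oral epithelium genes (3702 summed CPM, against 19.1 to 49.4 in the other 5), and case 5 and control 5 by their tooth-forming genes (459.6 and 89.8 summed CPM, against 0.64 to 7.79 in the others). Rows of RNA without a poly(A) tail, nearly all of it ribosomal (Rn45s, Rn18s and Rn28s), took 0.359% (0.356 to 0.362%, case 6) to 0.779% (0.774 to 0.783%, control 6) of the counts. Any selection for poly(A) tails or removal of ribosomal RNA is not given in the sources used here.

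Many cluster H2A and H2B genes lie head to head and share the DNA between their starts as promoter. Among the 27 cluster members with a promoter assigned in RefSeq's rat assembly GRCr8, 4 such pairs were found. Hist1h2bh was not among these members, since its symbol is a synonym of 2 genes. The shared promoters are shown because the pairs differed in how their counts were split. Each is written on the plus strand from the base after the minus-strand gene's start to the base before the plus-strand gene's start. Capitals mark matches, on either strand, to the CCAAT box (CCAAT), the TATA box (TATAAA), the octamer of H2B promoters (ATTTGCAT) and the box of H1 promoters (AAACACA). The coordinates are those of GRCr8, while the build behind the counts is not given in the sources used here.
Hist2h2ac and Hist2h2be, chr2:186469227-186469451: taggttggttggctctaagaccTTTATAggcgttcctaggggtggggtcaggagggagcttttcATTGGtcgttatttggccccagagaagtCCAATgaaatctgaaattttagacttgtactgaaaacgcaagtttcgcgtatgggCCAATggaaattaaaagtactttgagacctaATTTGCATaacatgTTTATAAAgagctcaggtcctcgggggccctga
Hist3h2bb and Hist3h2a, chr10:44233066-44233282: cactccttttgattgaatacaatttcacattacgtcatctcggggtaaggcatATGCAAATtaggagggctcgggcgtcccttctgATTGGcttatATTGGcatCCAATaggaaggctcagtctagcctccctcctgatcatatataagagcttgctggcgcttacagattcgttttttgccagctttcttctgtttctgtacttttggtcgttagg
Hist1h2bo and Hist1h2ai, chr17:47413790-47414052: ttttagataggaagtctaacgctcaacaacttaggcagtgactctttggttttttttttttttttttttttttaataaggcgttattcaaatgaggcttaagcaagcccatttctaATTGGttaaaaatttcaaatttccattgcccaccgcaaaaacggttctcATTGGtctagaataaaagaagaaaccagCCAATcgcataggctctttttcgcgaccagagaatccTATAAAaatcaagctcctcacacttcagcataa
Hist1h2aa and Hist1h2ba, chr17:41599673-41599911: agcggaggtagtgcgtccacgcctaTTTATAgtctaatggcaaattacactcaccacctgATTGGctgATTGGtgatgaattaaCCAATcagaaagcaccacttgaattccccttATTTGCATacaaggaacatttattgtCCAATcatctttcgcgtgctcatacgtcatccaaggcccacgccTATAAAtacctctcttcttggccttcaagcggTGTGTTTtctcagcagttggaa

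These windows of 225, 217, 263 and 239 bases hold 3, 3, 3 and 4 CCAAT boxes in the order shown. The TATAAA matches number 3, 0, 1 and 2, and the octamer stands once in each window except that of Hist1h2bo and Hist1h2ai, where it has 0 matches. In the window of Hist2h2ac and Hist2h2be, 2 of the 3 TATAAA matches overlap on opposite strands. Among the 250 bases before the start of each gene with a sequence in RefSeq's table, CCAAT was found in 25 of 27 cluster members (92.6%), 5 of 7 replacement members (71.4%) and 34.0% of all 33465 promoters. TATAAA was found in 16 cluster members (59.3%), 2 replacement members (28.6%) and 12.9% of all promoters. The octamer was found in 11 cluster members (40.7%), of which 6 were H2A and 5 H2B genes, in 1 replacement member (H3f3b) and in 1.56% of all promoters, and AAACACA in 5 cluster members (18.5%) and 6.08% of all promoters. Head-to-head genes share most of a window, so these members do not count as separate observations. A match is only a match of letters and shows no binding.

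Counts were split unevenly in the pairs of Hist2h2be and Hist3h2a. Hist2h2be, an H2B gene, had 197, 168 and 172 counts among case libraries, against 135, 143 and 101 among controls, while its H2A partner Hist2h2ac had 3, 9 and 4 and then 4, 4 and 1. Over the 6 libraries Hist2h2be held 97.3% of the 941 counts of the pair. Hist3h2a, an H2A gene, had 164, 200 and 207 counts among case libraries, against 146, 146 and 171 among controls, and its H2B partner Hist3h2bb had 5, 2 and 1 and then 1, 5 and 0, so that Hist3h2a held 98.7% of 1048. In both pairs the same gene held nearly all counts in every library of both groups.

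In the pair Hist1h2bo (H2B) and Hist1h2ai (H2A), the counts were low and closer to each other. Hist1h2bo had 16, 15 and 11 counts among case libraries, against 33, 10 and 2 among controls, and Hist1h2ai had 4, 6 and 7 and then 18, 4 and 1. Control 5 was the highest library and control 10 the lowest for both genes. The pair Hist1h2aa and Hist1h2ba, the germ line H2A and H2B genes, had 4 counts and 0 counts over all 6 libraries. Counts are not corrected for transcript length, which differs between genes, so the splits describe counted reads and not amounts of mRNA.

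**Figure D1:**
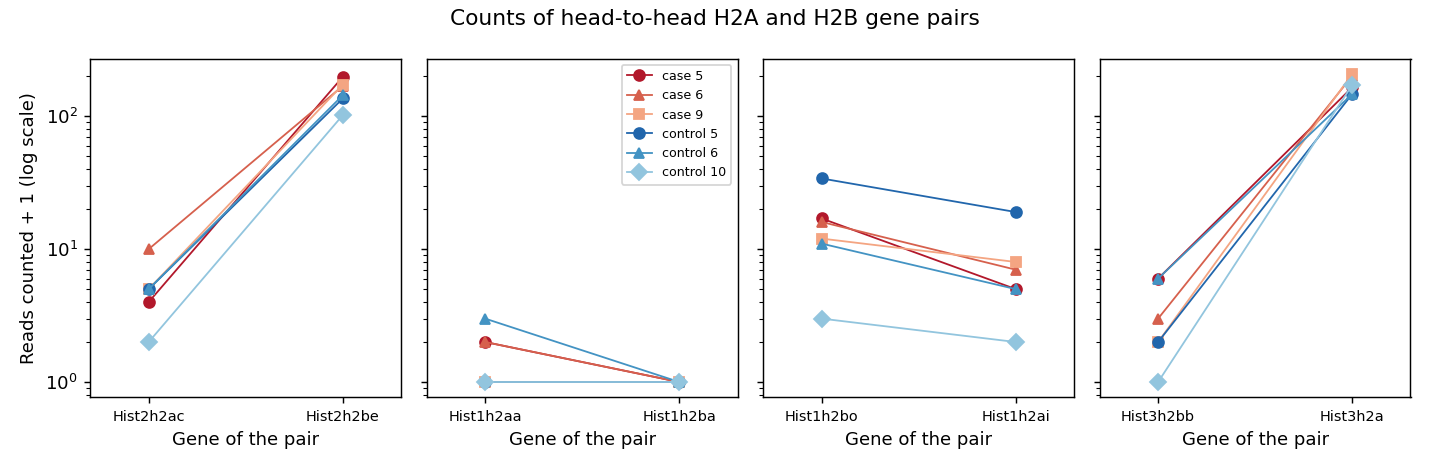
Counts plus 1 on a log axis for the 2 genes of each head-to-head pair, with a line for each library, reds for case and blues for control. Lines rise steeply to Hist2h2be and Hist3h2a in all 6 libraries, and fall less steeply from Hist1h2bo to Hist1h2ai.

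Few reads came from the cluster rows under Hist symbols. The 35 rows took 1689, 1563 and 2248 counts among case libraries, against 1680, 1785 and 1229 among controls, which is 0.0108% (95% Wilson interval 0.0103 to 0.0114%, case 6) to 0.0191% (0.0184 to 0.0200%, case 9) of each library. The 4 rows with the highest mean CPM, Hist1h2bh, Hist1h4b, Hist3h2a and Hist2h2be, held between 75.5% (control 5) and 89.4% (control 10) of these counts. The other 31 rows shared 248, 222 and 297 counts among case libraries, against 412, 298 and 130 among controls. Of these, 29 stayed under 30 counts in every library, and only Hist3h2ba (at most 153 counts) and Hist1h2bo (at most 33) went higher.

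By family, H2B genes took 55.6 to 64.0% of the cluster counts of a library, H4 genes 18.7 to 23.8% and H2A genes 11.5 to 18.2%. H1 genes took 1.73 to 2.80% and H3 genes 0.64 to 1.51%. These shares cover the 35 rows alone. They leave out cluster genes listed under LOC names, among them H1f2, an H1 gene given below. H1f2 had 1933 (control 10) to 3298 counts (case 6), more than all 35 rows together in every library. The H2B counts lay mostly in Hist1h2bh and the H4 counts in Hist1h4b. Within the H2A, H2B, H3 and H4 families, cluster genes are near-identical copies of each other. Reads that fit several copies may have been dropped or split, so single rows are uncertain.

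**Figure D2:**
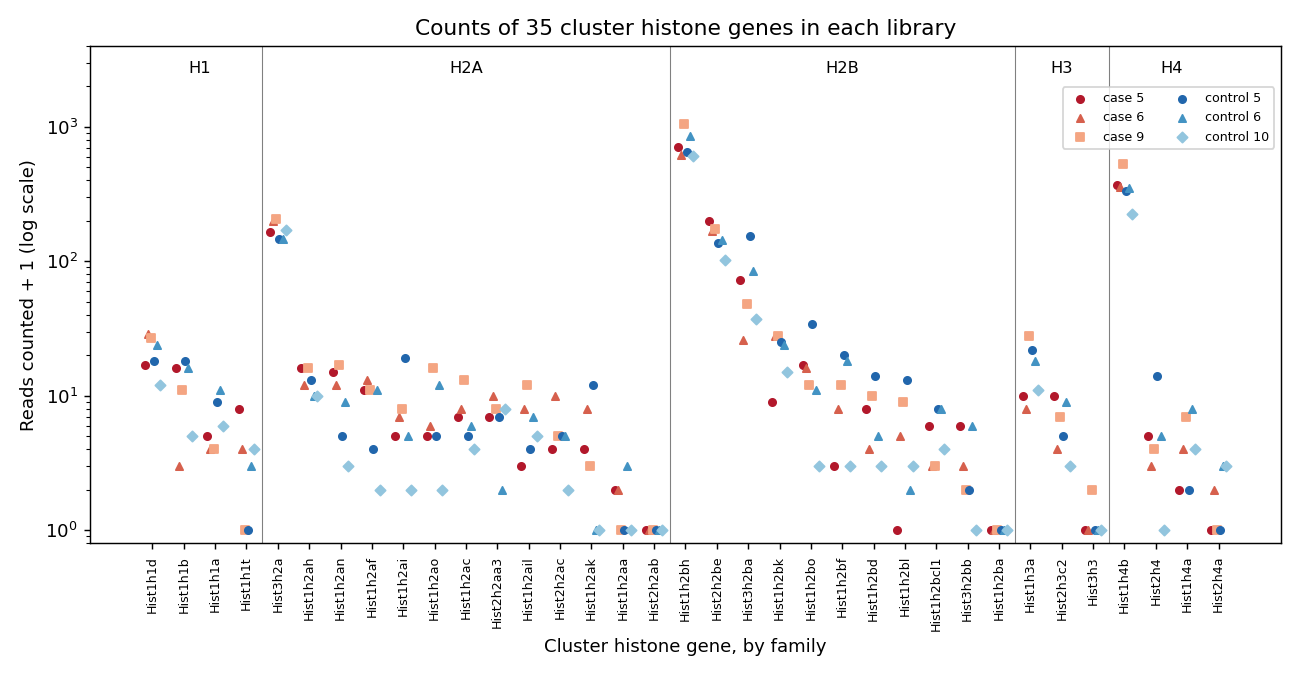
Counts plus 1 on a log axis for the 35 cluster histone genes, grouped by family and ordered by mean CPM, with 1 point for each library. Hist3h2a, Hist1h2bh, Hist2h2be and Hist1h4b lie at 101 to 1047 counts, and nearly all other rows under 30.

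The most counted of the 35 cluster rows, Hist1h2bh, an H2B gene, was at 56.9, 41.0 and 88.0 CPM among case libraries, against 57.1, 66.8 and 55.0 among controls. Case 9 was the highest library and case 6 the lowest, so the case libraries enclosed the range of the controls. Its log2 fold change was 0.05 (SE 0.27), with an unadjusted p of 0.847 in edgeR's quasi-likelihood test, and it was 0.28 without case 6 and -0.29 without case 9. The symbol is an older name of 2 genes in GRCr8 (H2bc9 and Hist1h2bq), so which of them gave the reads is uncertain. Hist1h4b, an H4 gene, was at 29.4, 23.7 and 44.1 CPM among case libraries, against 29.3, 27.5 and 20.6 among controls, with the same library highest and overlapping groups. Its log2 fold change was 0.33 (SE 0.26), and 0.04 without case 9.

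Hist2h2be was at 15.7, 11.2 and 14.5 CPM among case libraries, against 11.8, 11.3 and 9.23 among controls, and the groups overlapped in case 6 alone (log2 fold change 0.36, SE 0.22). Hist3h2a was at 13.1, 13.3 and 17.4 CPM among case libraries, against 12.8, 11.5 and 15.6 among controls, with overlapping groups (log2 fold change 0.13, SE 0.22). Hist3h2ba, an H2B gene of the same small cluster as Hist3h2a, showed another pattern. It was at 5.75, 1.66 and 3.95 CPM among case libraries, against 13.4, 6.53 and 3.29 among controls, highest in the library with epithelial genes. Its log2 fold change was -1.03 (SE 0.61) with all libraries and -0.38 without control 5.

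Linker histone rows under Hist symbols were sparse, unlike H1f2, which is listed under a LOC name and given below. Hist1h1d had 16, 28 and 26 counts among case libraries, against 17, 23 and 11 among controls, and Hist1h1b had 15, 2 and 10 and then 17, 15 and 4, so both overlapped. The only H3 row tested was Hist1h3a, with 9, 7 and 27 counts among case libraries, against 21, 17 and 10 among controls, where the highest and the lowest library were both case. Germ line members were near or at 0: Hist1h1t, the testis H1, had 0 to 7 counts, Hist3h3 had 1 count in case 9 and 0 elsewhere, and Hist1h2ba and H2afb3 were listed at 0 in all 6, as was Hist2h2ab, a somatic H2A gene.

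Replacement histones took 0.0711% (0.0697 to 0.0725%, control 6) to 0.0986% (0.0970 to 0.100%, case 6) of each library's counts. The 2 members with the smallest p were H2A variants. H2afy, which encodes macroH2A1, a large variant found on inactive chromatin, was at 171, 185 and 211 CPM among case libraries, against 152, 144 and 141 among controls. All 3 case libraries lay above all 3 controls, at 189 ± 20.2 against 146 ± 5.6 CPM (mean ± SD with n = 3 in each group, as in all that follows). The log2 fold change was 0.37 (SE 0.14), with an unadjusted p of 0.0326 and a Benjamini-Hochberg adjusted p of 0.999 in edgeR.

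H2afx, which encodes H2A.X, was at 109 CPM in case 5, 119 in case 6 and 153 in case 9, and at 99.4, 98.5 and 96.2 CPM among controls. Here too the groups did not overlap, at 127 ± 22.8 against 98.0 ± 1.6 CPM, and the controls lay close together. The log2 fold change was 0.38 (SE 0.16), with an unadjusted p of 0.0488 and an adjusted p of 0.999 in edgeR. In RefSeq H2afx is an older name of H2ax and also of the neighbouring gene Dpagt1, which has a row of its own in the table. Without case 9 the log2 fold changes were 0.29 for H2afy and 0.22 for H2afx, with unadjusted p of 0.115 and 0.183 in edgeR. Both genes also missed 0.05 without case 6, control 6 or control 10 (unadjusted p of 0.0709 to 0.0918), and H2afx without control 5 (0.0757). Without both libraries numbered 5 the log2 fold changes were 0.51 and 0.52.

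H2afy2, which encodes the related variant macroH2A2, had a fold change of the other sign. It was at 12.8, 21.0 and 12.5 CPM among case libraries, against 21.9, 16.6 and 25.1 among controls, with case 6 inside the range of the controls. The log2 fold change was -0.46 (SE 0.27, unadjusted p of 0.131 in edgeR), and -0.74 without case 6. Whether the 2 macroH2A genes differed in their change was not tested.

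H2afz, which encodes H2A.Z, a variant of promoter nucleosomes, was at 122, 144 and 159 CPM among case libraries, against 129, 134 and 120 among controls (log2 fold change 0.15, SE 0.15), and its groups overlapped through case 5. H3f3b, the larger H3.3 row, was at 309, 439 and 334 CPM among case libraries, against 369, 317 and 326 among controls, with case 6 alone above the rest. Its log2 fold change was 0.09 (SE 0.19), and -0.07 without case 6. H3f3c, which RefSeq lists as a pseudogene, was at 47.6, 39.7 and 54.8 CPM among case libraries, against 53.6, 58.0 and 39.9 among controls (log2 fold change -0.09, SE 0.20). H2afj, a further H2A variant, had 0, 0 and 2 counts among case libraries, against 2, 2 and 0 among controls.

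**Figure D3:**
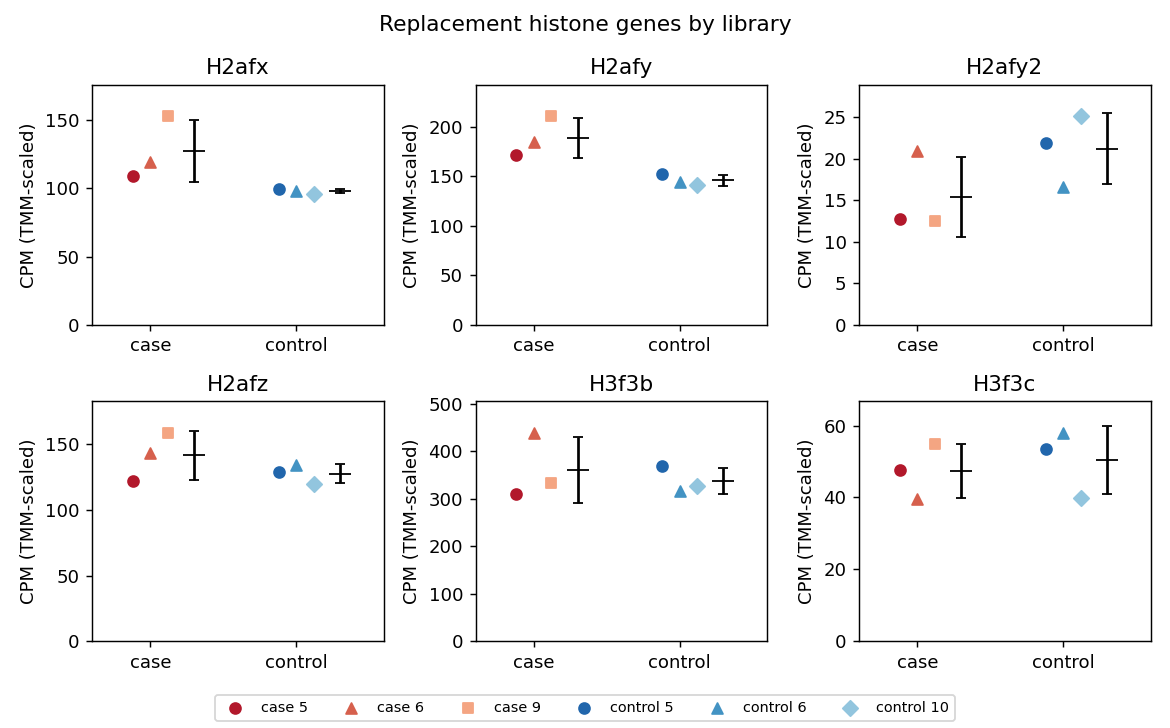
CPM of the 6 tested replacement histone genes, with a point for each library and the mean ± SD of each group beside the points. H2afx and H2afy have all case points above all control points, while the groups of the other 4 genes overlap.

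Of the 43 members, 18 passed the filter on low counts and were tested (12 cluster and 6 replacement), 22 had counts but were below it, and 3 had none. edgeR called 0 of the 18 at a Benjamini-Hochberg adjusted p under 0.05, over a background of 0% (0 of 16066 genes). At an unadjusted p under 0.05 it gave 2 members higher in case, against 1.88% of all tested genes, and 0 lower, against 2.27% (4.15% in either direction). DESeq2 called 0 members, against 0.131% of all genes, and limma-voom 0. Groups that did not overlap were found in the same 2 members, both higher in case, against 4.05% of all tested genes higher and 4.42% lower (8.47% in either direction). Of the 22 members with counts that were below the filter, Hist1h2an, Hist1h2af and Hist1h2ac lay apart with case higher, against 3.05% of such genes, and Hist1h1a lay apart with case lower, against 3.37%. These rest on 1 to 16 counts a library and were named after their values were seen.

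Positive fold changes were found in 6 of 12 tested cluster members and 4 of 6 replacement members, against 46.3% of all tested genes, and the remaining members and 53.7% of all tested genes had negative ones. The median log2 fold change was -0.04 for cluster and 0.12 for replacement members, against -0.02 for all tested genes. The cluster median did not hold its sign. It was -0.18 without case 9, positive without any other single library, 0.33 without control 5 and 0.38 without both libraries numbered 5. The filter was run anew each time, so these medians cover sets of 12 to 15 genes that are not all the same. The median of the 6 replacement members stayed positive, at 0.08 to 0.25 with 1 library left out and 0.30 without both libraries numbered 5. It leaves out replacement rows listed under LOC names, given below, whose 8 tested rows had a median of -0.09.

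**Figure D4:**
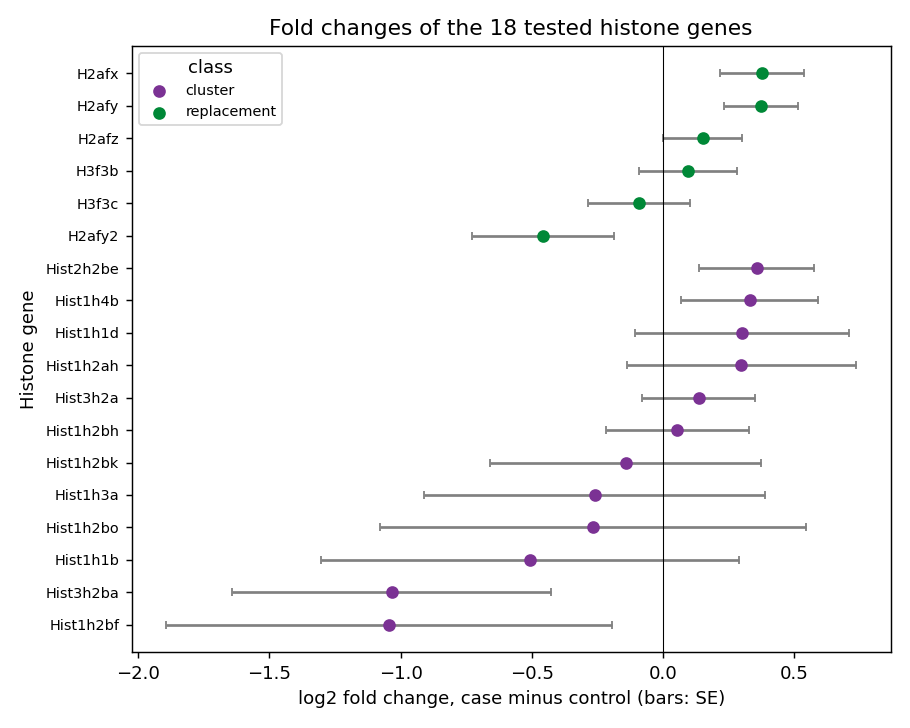
Log2 fold change, case minus control, of the 18 tested histone genes with its SE, coloured by class. H2afx (0.38) and H2afy (0.37) are the highest points and Hist1h2bf (-1.04) and Hist3h2ba (-1.03) the lowest, the last 2 with wide errors.

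The ratio of cluster to replacement counts within a library, which needs no scaling between libraries, did not set the groups apart. There were 175, 110 and 205 cluster counts for every 1000 replacement counts among case libraries, against 178, 183 and 150 among controls. The log2 ratio was -2.67 ± 0.467 in case and -2.56 ± 0.155 in control, a difference of -0.11 that is smaller than the spread between the case libraries. The lowest and the highest ratio were both case libraries, and without case 6 the difference was 0.16. In summed CPM the cluster genes stood at 143 ± 43.0 for case, against 133 ± 18.5 for control, and the replacement genes at 881 ± 94.9 and 781 ± 39.5, both with overlapping groups.

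The sparse cluster rows ordered the libraries otherwise than the 4 most counted rows. The 4 rows summed to 115, 89.2 and 164 CPM among case libraries, against 111, 117 and 100.4 among controls, with case 9 highest. The other 31 summed to 19.8, 14.8 and 24.97 CPM among case libraries, against 36.1, 23.5 and 11.9 among controls, with control 5 highest and control 10 lowest. Without Hist3h2ba control 5 (22.7 CPM) and case 9 (21.0) were close, and control 10 (8.59) was still lowest. The summed S phase genes were lowest in control 10 (1072 CPM) and highest in control 5 (1567). They stood at 1545, 1355 and 1460 CPM among case libraries and at 1397 in control 6. The summed mitosis genes stood at 1178, 777 and 1085 CPM among case libraries, against 1175, 994.4 and 774.1 among controls. Whether the sparse rows follow either sum was not tested.

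**Figure D5:**
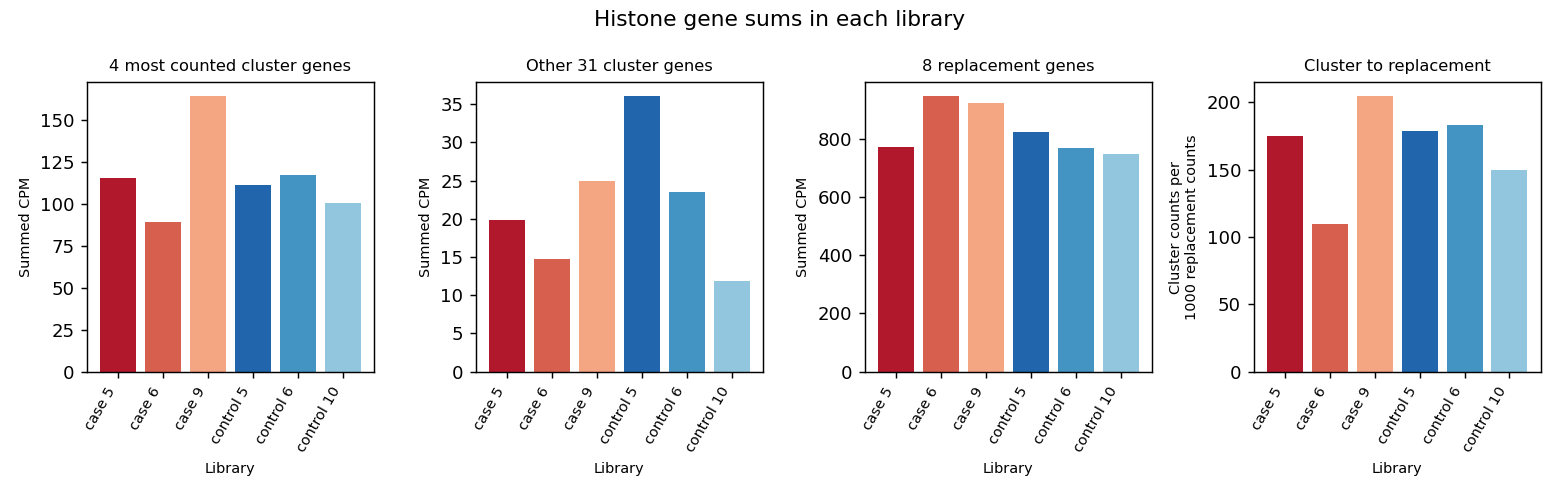
Bars of summed CPM in each library for the 4 most counted cluster genes, the other 31 cluster genes and the 8 replacement genes, and of cluster counts per 1000 replacement counts, all axes from 0. Case 9 is highest in the left panel and in the ratio, control 5 in the second, and case 6 has the lowest ratio.

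The symbols of the rule missed histone rows that the table lists under LOC names. Matching LOC numbers to RefSeq gene IDs, after the table's names and values had been seen, found 15 further cluster rows and 13 further replacement rows. The largest was LOC684681, which is H1f2, the linker histone H1.2. It was at 192, 219 and 255 CPM among case libraries, against 197, 244 and 177 among controls, above the summed CPM of all 35 cluster rows in every library, with overlapping groups (log2 fold change 0.11, SE 0.19).

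The largest added replacement row was LOC100359421 (H3f3l1), at 202 ± 14.7 CPM for case, against 207 ± 30.7 for control. LOC690171, which RefSeq lists as a pseudogene of H3f3a, was at 97.6 ± 18.7 and 98.5 ± 1.70 CPM. LOC100361558 is H3f3a, the second H3.3 gene, at 50.5 ± 4.78 CPM for case, against 55.6 ± 11.5 for control. LOC100360145, which RefSeq lists as a pseudogene of H2az1, was at 172 ± 24.9 CPM for case, against 141 ± 28.9 for control, beside 142 ± 18.4 and 128 ± 7.35 for the H2afz row itself. How the reads of H2A.Z were divided between the rows of the gene and the pseudogene was not tested. Of the 8 tested LOC replacement rows, 2 had a positive fold change, against 46.3% of all tested genes, and 6 a negative one, against 53.7%. Their median log2 fold change was -0.09. With the LOC rows added, the difference in the log2 ratio of cluster to replacement counts was -0.02.

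Histone genes that the rule does not cover lay at different levels, and edgeR called 0 of the 3 tested after adjustment. H1f0, the linker histone of resting cells, was at 188 ± 38.8 CPM for case, against 172 ± 30.4 for control. H1fx, the variant H1.10, was at 19.2, 21.7 and 19.5 CPM among case libraries, against 16.5, 13.5 and 14.4 among controls, so its groups did not overlap (log2 fold change 0.45, SE 0.17, unadjusted p of 0.0336 and adjusted p of 0.999 in edgeR). Cenpa, the centromeric H3, was at 7.77 ± 0.603 and 7.86 ± 2.26 CPM.

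Factors that make and process cluster histone mRNA gave no call. Of 18 tested genes of the histone mRNA list, 12 had a positive fold change, against 46.3% of all tested genes, with a median of 0.05. In edgeR 0 passed, unadjusted or adjusted. Slbp, the stem-loop binding protein, was at 45.3 ± 6.62 CPM for case, against 52.6 ± 15.8 for control, and Npat, the coactivator of cluster histone transcription, at 18.2 ± 4.35 and 19.6 ± 5.68. Sympk, a scaffold of the cleavage complex, had the smallest p of the list and separate groups, at 114 ± 5.04 and 90.7 ± 11.4 CPM (unadjusted p of 0.0516 and adjusted p of 0.999 in edgeR). Hinfp, of the same list, also had separate groups, at 29.1 ± 1.61 and 26.3 ± 0.952 CPM. Thus 2 genes of the list lay apart higher and 0 lower, against 4.05% and 4.42% of all tested genes.

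Of 28 tested histone chaperone and deposition genes, 22 had a positive fold change with a median of 0.08, against 46.3% of all tested genes, and 0 passed after adjustment in edgeR. At an unadjusted p under 0.05 there were 1 higher and 1 lower in case, against 1.88% and 2.27% of all tested genes. The first was Vps72, a subunit of the complexes that deposit H2A.Z, at 48.9 ± 6.14 against 34.8 ± 1.96 CPM, and the other was Nasp, a chaperone of H3 and H4, at 46.2 ± 1.93 against 59.7 ± 7.67 CPM. Both had separate groups, as did Hat1, which acetylates newly made H4, at 36.3 ± 3.43 against 30.2 ± 1.75 CPM, so that 2 genes lay apart higher and 1 lower, against 4.05% and 4.42% of all tested genes. Chaf1a, which deposits newly made H3.1 behind the replication fork, was at 45.3 ± 4.75 and 42.7 ± 1.96 CPM. The H3.3 chaperones overlapped as well, with Hira at 6.02 ± 3.18 and 5.51 ± 3.13 CPM and Daxx at 48.2 ± 3.75 and 47.6 ± 3.82.

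Genes of dividing cells gave no call after adjustment. Of 31 S phase genes 16 and of 20 mitosis genes 10 had a positive fold change, against 46.3% of all tested genes, with medians of 0.05 and 0.0084, and edgeR called 0. At an unadjusted p under 0.05 there were 2 S phase genes and 1 mitosis gene higher in case, against 1.88% of all tested genes, and 0 lower. Groups lay apart in 3 S phase genes and 1 mitosis gene, all higher in case, against 4.05% of all tested genes. Pcna, the clamp of the replication fork, was at 115 ± 5.70 CPM for case, against 107 ± 7.73 for control, and Mki67, a marker of cycling cells, at 180 ± 96.6 and 184 ± 74.6. The smallest p belonged to Mcm5 (100.1 ± 5.63 against 72.3 ± 14.6 CPM), a subunit of the replicative helicase, in the S phase list and to Birc5 (19.9 ± 2.51 against 14.1 ± 1.83 CPM), which encodes survivin, in the mitosis list. Fen1, a nuclease that trims lagging strand fragments, was at 46.7 ± 3.07 and 35.4 ± 5.01 CPM, and Mcm2, another helicase subunit, at 124 ± 2.85 and 106 ± 18.9. These 4 genes were the ones with separate groups.

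Markers of marrow blood cells differed between single libraries. The summed neutrophil precursor genes stood at 4102, 6818 and 6555 CPM among case libraries, against 2884, 6514 and 4506 among controls. The summed erythroid genes stood at 21310, 1993 and 7655 CPM among case libraries, against 22510, 23060 and 13260 among controls, and B cell precursor genes at 291, 110 and 130 CPM among case libraries, against 207, 166 and 83.1 among controls. Case 6, lowest in the ratio of cluster to replacement counts, was also lowest in erythroid genes. Control 10, lowest in the sparse cluster rows, was lowest in B cell precursor genes. Neutrophil precursor genes went otherwise, highest in case 6 and lowest in control 5. Case 9, highest in the ratio, lay below every control in erythroid genes. Control 5, highest in the sparse rows, lay below case 5 in B cell precursor genes. The largest erythroid rows were the globin genes Hba1, Hbb and Hba2. Klf1, of the same list, was lowest in control 10 (14.9 CPM), against 22.8 CPM in case 6. Of the listed genes tested, all 12 erythroid genes had negative fold changes, against 53.7% of all tested genes. So did 3 of 9 neutrophil precursor and 3 of 9 B cell precursor genes. Of all these genes, 0 were called after adjustment in edgeR. At an unadjusted p under 0.05 edgeR gave 2 erythroid genes lower in case, against 2.27% of all tested genes. Both had separate groups, against 4.42% of all tested genes with case lower. They were Hbb-b1, a beta globin (104 ± 71.8 against 591 ± 178 CPM, unadjusted p of 0.00237), and Tfrc, the transferrin receptor (127 ± 35.4 against 199 ± 40.0 CPM). It gave 2 neutrophil precursor genes higher in case, Mpo and Cebpe, against 1.88% of all tested genes, both with overlapping groups. The part of these cells in the histone values was not tested, and in bulk RNA fewer cells of a type and less RNA per cell cannot be told apart.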

How the data were processed

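RNA was extracted from alveolar tissue with TRIzol and prepared for single-end sequencing by the Ion Total RNA-Seq Kit, per the labels' protocols. The 6 columns of the table that the authors deposited hold raw counts for each gene symbol. The programs for alignment and counting, the annotation, the build and any use of strand were not given in the sources used here. The reads of near-identical histone copies may have been dropped, split or shared.

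All 37203 genes were filtered with filterByExpr, which left 16066, scaled with TMM, and compared by edgeR 4.0.16 (R 4.3.3, quasi-likelihood test) with the group alone as design and Benjamini-Hochberg adjustment over all tested genes at 0.05. CPM values are counts over TMM-scaled library size. The SE is the log2 fold change divided by the square root of F. The common biological coefficient of variation came to 0.322.

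Members and lists were chosen with earlier results of these data known, so lists have counts and medians and no test. The lists covered other histones, histone mRNA processing, chaperones, S phase, mitosis, RNA without a poly(A) tail, and markers of bone, tooth-forming, epithelial, muscle, erythroid, neutrophil precursor and B cell precursor cells. Summed skeletal muscle genes stood at 128 to 1401 CPM in case and 9.89 to 1175 in control. Named genes were all counted replacement members, the most counted and smallest-p members of each cluster family, the smallest-p genes of each list and fixed genes such as Slbp. The text gives a part of them.

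Of the 43 symbols, 14 matched a current RefSeq symbol of GRCr8, 22 a synonym of 1 gene, 5 a synonym of more than 1 gene, and 2 had no match. Promoter sequences are RefSeq's, for GRCr8, and H2afx was read as H2ax there. Alternatives were other scalings and filters, DESeq2 1.42.0, limma-voom (limma 3.58.1), each library left out, both libraries numbered 5 left out, the title number as a block, and other sums for the ratio. The sums with LOC rows and with sparse rows alone were chosen after seeing the data.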

Additional observations from a re-analysis of the deposited data

How the results depend on the processing

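Each alternative (scaling, filter, DESeq2, limma-voom, title number as a block, 1 library left out, both libraries numbered 5 left out) gave 0 histone genes called. Over all genes DESeq2 called 21, and edgeR called 0 to 2 with 1 library left out (2 without control 5). With 1 library left out the cluster median ran from -0.18 to 0.33, the replacement median from 0.08 to 0.25 and the difference in the log2 ratio of cluster to replacement from -0.29 to 0.16. Without both libraries numbered 5 the replacement median was 0.30. The cluster median was also positive by library totals (0.0058), without a filter (0.06, over 33 genes), with 10 counts in 3 libraries (0.09, over 14 genes) and in limma-voom (0.06). The causes were not tested.

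Groups share only the numbers 5 and 6, and nothing says that these pair the samples. Deviations from the group means correlated at 0.38 for the number 5 and 0.136 for 6 across genes, against 0.283 for case 9 with control 6. With the number as a block, which leaves 1 residual degree of freedom, the cluster median was -0.42, the replacement median 0.06 and the ratio difference -0.38, and log2 fold changes turned negative for Hist1h2bh (-0.36), Hist1h4b (-0.10), Hist1h1d (-0.082), Hira (-0.053), Daxx (-0.11), Chaf1a (-0.037) and LOC684681 (-0.10).

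Other turns of sign were Hist1h2bh in limma-voom (-0.016), Hist1h3a without both libraries numbered 5 (0.28), and Cenpa by DESeq2 size factors (0.0082), library totals (0.021), DESeq2 (0.0070), limma-voom (0.011) and without both libraries numbered 5 (0.17). With 1 library left out, log2 fold changes crossed 0 for Cenpa (-0.18 to 0.19), Daxx (-0.045 to 0.095), H1f0 (-0.054 to 0.28), H3f3b (-0.071 to 0.22), H3f3c (-0.21 to 0.050), Hira (-0.36 to 0.68), Hist1h1b (-1.06 to 0.0073), Hist1h2bh (-0.29 to 0.28), Hist1h3a (-1.20 to 0.13), Hist3h2a (-0.0098 to 0.30), LOC100361558 (-0.27 to 0.059), LOC684681 (-0.0019 to 0.28), Mki67 (-0.52 to 0.33), Npat (-0.29 to 0.16) and Slbp (-0.33 to 0.057). H2afx and H2afy stayed positive in each alternative, with adjusted p no lower than 0.226. The unadjusted p of both was above 0.05 with the block, at 0.168 for H2afy (log2 fold change 0.26) and 0.228 for H2afx (0.21), and that of H2afx also without a filter (0.0535), with 10 counts in 3 libraries (0.0506) and in limma-voom (0.0576). The 29 sparse cluster rows stayed under 30 counts in each library, which limits their precision.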
